A study of Oryza sativa Indica Group with 8 samples.

Results

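The glutamine synthetases, glutamate synthases and an asparagine synthetase of rice leaves were followed through salt shocks given early, late, at both times or never. The group was set by 8 locus identifiers, each with its gene name, and all 8 were among the 55986 loci counted. The members are GS1;1 (LOC_Os02g50240, chromosome 2), GS1;2 (LOC_Os03g12290, chromosome 3), GS1;3 (LOC_Os03g50490, chromosome 3) and GS2 (LOC_Os04g56400, chromosome 4) among the glutamine synthetases. The glutamate synthases are Fd-GOGAT (LOC_Os07g46460, chromosome 7), NADH-GOGAT1 (LOC_Os01g48960, chromosome 1) and NADH-GOGAT2 (LOC_Os05g48200, chromosome 5), and the asparagine synthetase is LOC_Os03g18130 on chromosome 3. The chromosomes are read from the identifiers, and the names come from the rule that chose the members, since the tables hold identifiers only.

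All plants were of the genotype BRS Ligeirinho, an indica rice that is sensitive to salt, kept in germination rolls for 7 days and raised in pots of sand under glass, watered in turn with water and nutrient solution. Control plants received no salt, vegetative-shock plants met salt at stage V4 alone, and reproductive-shock plants at stages R0-R1 alone. Double-shock plants met it at both. Each of the 4 groups had 2 leaf RNA-seq libraries, and the labels leave unsaid whether different plants gave them. The p-values therefore describe the spread between libraries only, and that spread may be technical. Not given in the sources used here: the salt dose and the time from shock to harvest of the leaves. If harvest times differed, plant age and the shocks cannot be told apart.

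Glutamine synthetase joins ammonium to glutamate, and glutamate synthase (GOGAT) passes the amide group of glutamine on to a keto acid, which regenerates glutamate. In leaves GS2 and Fd-GOGAT work in the chloroplast, where they recapture the ammonium released by photorespiration. The GS1 enzymes of the cytosol and the NADH-dependent GOGATs act mainly in vascular tissue and roots, in primary assimilation and in moving nitrogen out of ageing leaves. Asparagine synthetase moves the amide of glutamine to aspartate and makes asparagine, a nitrogen carrier.

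The libraries held 10464740 to 11727657 counted reads. In control replicate 1, double-shock replicate 1 and reproductive-shock replicate 2, 13.5% to 13.8% of reads aligned to more than 1 place, against 9.32% to 9.995% in the other 5 libraries. Of the 8 members, 7 had enough reads to be tested among 18251 loci, in 1 edgeR quasi-likelihood fit of all libraries with Benjamini-Hochberg adjustment. A gene was called at an adjusted p below 0.05. Levels are given as CPM, counts scaled to library size with TMM factors, and are compared only within a gene because gene lengths were not used here.

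NADH-GOGAT2, the NADH-dependent isoform known from the vascular tissue of mature rice leaves, was the member that passed the test. Double-shock libraries stood at 28.0 and 26.8 CPM and vegetative-shock libraries at 9.33 and 10.2 CPM. Control libraries stood at 14.3 and 16.6 CPM and reproductive-shock libraries at 13.2 and 14.99 CPM. The double-shock libraries were thus the highest of the 8 and the vegetative-shock libraries the lowest, while control and reproductive-shock libraries overlapped between them. The raw reads were 287 and 318 in double-shock libraries, 171 and 174 in controls, 151 and 154 after the late shock alone and 96 and 124 after the early shock alone.

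Against vegetative-shock plants, NADH-GOGAT2 rose 2.81-fold in double-shock plants (edgeR adjusted p = 0.0257; log2 fold change 1.49, SE 0.15). The means were 9.75 ± 0.596 CPM without and 27.4 ± 0.842 CPM with the second shock (SD, n = 2). The 95% interval of this fold change ran from 2.21 to 3.56. In this comparison 1 of the 7 tested members was called, against 0.0712% of all loci, and NADH-GOGAT2 ranked 3 of 18251 by p. In bulk leaf RNA, a change in the share of cells that express a gene and a change in the RNA per cell cannot be told apart. The call was kept without either control library and without double-shock replicate 2. It was lost without double-shock replicate 1 (log2 fold change 1.45, edgeR adjusted p = 0.152), without vegetative replicate 1 (1.43, edgeR adjusted p = 0.0794) or 2 (1.55, edgeR adjusted p = 0.0782), and without reproductive replicate 1 (1.48, edgeR adjusted p = 0.107) or 2 (1.48, edgeR adjusted p = 0.108). Fitted on these 2 groups alone, NADH-GOGAT2 stood at 1.48 with an edgeR adjusted p of 0.104. The call was kept with RLE size factors (edgeR adjusted p = 0.0286) and with the replicate number as a block (edgeR adjusted p = 0.0314). DESeq2 (adjusted p = 4.77e-06) and edgeR without the low-count filter (adjusted p = 1.13e-10) also kept it. These last fits called 102 and 706 loci, against 13 as reported.

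The late shock moved NADH-GOGAT2 by unlike amounts in plants with and without an earlier shock. Without an earlier shock its mean was 15.4 ± 1.61 CPM in control plants, and 14.1 ± 1.26 CPM where the late shock came alone (SD, n = 2). That is a log2 fold change of -0.13 (95% interval -0.47 to 0.21, SE 0.15, edgeR adjusted p = 0.754). After an early shock the log2 fold change was 1.49, as given above. The interaction, which is the difference between these log2 fold changes, was 1.62 (SE 0.21, 95% interval 1.14 to 2.10, edgeR adjusted p = 0.0416). It was called for 1 of 7 tested members, against 0.0986% of all loci, and ranked 16 of 18251. With the replicate number as a block, the interaction was 1.62 at an edgeR adjusted p of 0.0503. It was called with RLE size factors (edgeR adjusted p = 0.0449), with DESeq2 (adjusted p = 0.00171) and without the low-count filter (edgeR adjusted p = 3.15e-06). DESeq2 and the unfiltered fit called 175 and 646 loci, against 18 as reported.

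The size of the NADH-GOGAT2 interaction held more steadily than its call. It stayed between 1.50 and 1.72 over the 8 fits that each left out 1 library, and the call was kept only without control replicate 1 (1.72, edgeR adjusted p = 0.0351). The adjusted p in the other 7 fits was 0.141 without control replicate 2, 0.171 and 0.0791 without double-shock replicates 1 and 2, 0.153 and 0.177 without reproductive replicates 1 and 2, and 0.115 and 0.101 without vegetative replicates 1 and 2 (edgeR). With the multiply aligned share of each library as a term, the interaction was 1.61 (edgeR adjusted p = 0.0656) and the rise over vegetative-shock plants 1.48 on the log2 scale (edgeR adjusted p = 0.0522). In the 5 libraries of low share alone these values were 1.78 and 1.45, with edgeR adjusted p = 0.354 and 0.411. Vegetative-shock plants alone kept 2 libraries there, and the lone libraries of the other groups were assumed to vary like them.

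**Figure D1:**
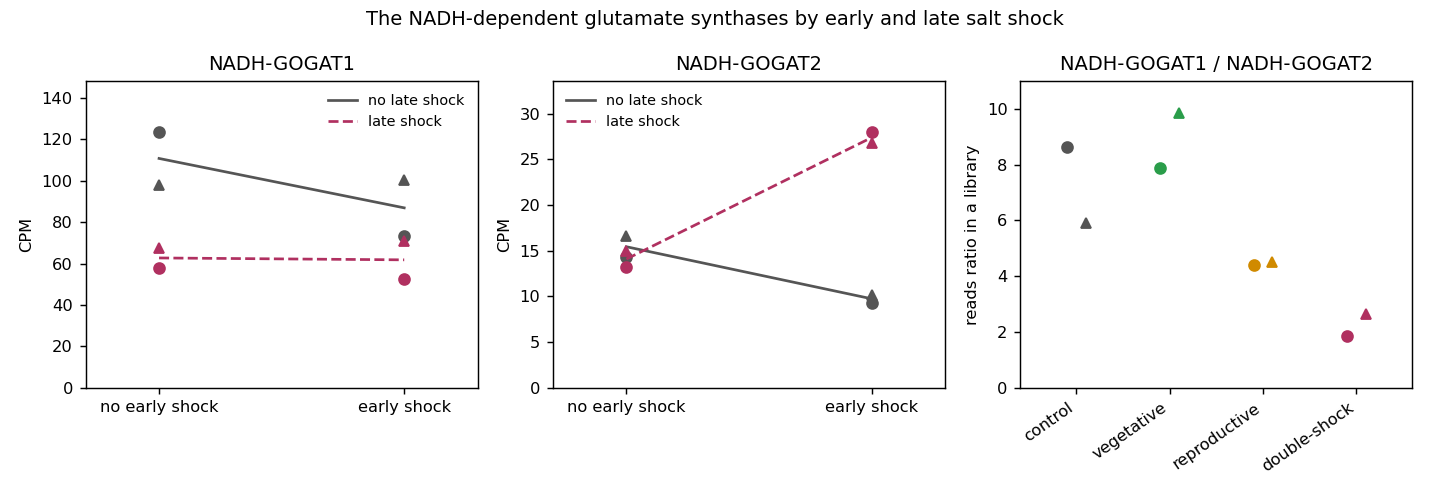
Levels of NADH-GOGAT1 (left) and NADH-GOGAT2 (middle) in CPM, with lines joining the means of plants without (solid) and with (dashed) a late shock, and reads of NADH-GOGAT1 over reads of NADH-GOGAT2 in each library (right). Circles are replicate 1 and triangles replicate 2. The lines for NADH-GOGAT2 diverge to 9.75 and 27.4 CPM after an early shock, and the reads ratio is lowest in double-shock libraries, at 1.88 and 2.65.

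Averaged over both histories, the late shock raised NADH-GOGAT2 by 0.68 on the log2 scale (SE 0.11, edgeR adjusted p = 0.0384), the call of 1 in 7 tested members against 0.449% of all loci. The 4 late-shock libraries and the other 4 overlapped, since reproductive-shock libraries lay at the control level. The average thus combines log2 fold changes of -0.13 and 1.49. This call was lost in each of the 8 fits that left out a library, with log2 values from 0.63 to 0.73 and edgeR adjusted p from 0.0564 to 0.175. It was also lost with the multiply aligned share as a term (0.68, edgeR adjusted p = 0.0781). The call was kept with RLE size factors (edgeR adjusted p = 0.0379) and with the replicate number as a block (edgeR adjusted p = 0.0426). DESeq2 (adjusted p = 0.0129) and edgeR without the low-count filter (adjusted p = 0.000159) also kept it. These last fits called 312 and 1224 loci, against 82 as reported.

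Other differences of NADH-GOGAT2 did not pass the edgeR test after the low-count filter. Double-shock plants stood 1.94-fold above reproductive-shock plants (95% interval 1.54 to 2.45, edgeR adjusted p = 0.227) and 1.775-fold above control (1.41 to 2.23, edgeR adjusted p = 0.0861). Vegetative-shock plants stood at 0.633 of the control level (0.497 to 0.805, edgeR adjusted p = 0.275). In each of these 3 comparisons the libraries of the groups did not overlap. The same held in the same direction for 20.5%, 20.3% and 17.8% of all loci. Of these 3 comparisons DESeq2 called the first (adjusted p = 0.0406) and gave the second an adjusted p of 0.0562 and the last 0.560. It called 61, 222 and 128 loci there. Without the low-count filter edgeR called the first and the second (log2 0.95 and 0.82, adjusted p = 0.000255 and 0.00151). That unfiltered fit called 501 and 1119 loci in these comparisons, against 0 and 30 as reported. Its SEs for NADH-GOGAT2 were larger, 0.20 and 0.20 against 0.15 and 0.15.

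NADH-GOGAT1, the other NADH-dependent glutamate synthase, known in rice for ammonium assimilation in roots and developing organs, was lower in all 4 libraries that met the late shock. Control libraries stood at 123 and 98.1 CPM and vegetative-shock libraries at 73.4 and 100.4 CPM. Reproductive-shock libraries stood at 58.0 and 67.4 CPM and double-shock libraries at 52.5 and 71.1 CPM. The highest late-shock library, at 71.1 CPM, lay just under the lowest of the others, at 73.4 CPM.

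None of these differences of NADH-GOGAT1 was called by edgeR among the 18251 loci that passed the low-count filter. The late-shock average was -0.66 on the log2 scale (SE 0.15, 95% interval -0.99 to -0.33, edgeR adjusted p = 0.116), and 3.04% of all loci had all late-shock libraries below the other 4. Against control the level was 0.566 in reproductive-shock plants (edgeR adjusted p = 0.129, 95% interval 0.409 to 0.783) and 0.558 in double-shock plants (0.403 to 0.773, edgeR adjusted p = 0.187). DESeq2 called all 3 (adjusted p = 0.00272, 0.0124 and 0.0132), among 312, 431 and 222 loci. So did edgeR without the low-count filter, at log2 values of -0.66, -0.82 and -0.85 (adjusted p = 1.41e-06, 4.19e-05 and 2.18e-05). That unfiltered fit called 1224, 1291 and 1119 loci, against 82, 112 and 30 as reported. The log2 difference between double-shock and reproductive-shock plants was -0.02, with a 95% interval of -0.49 to 0.45, and vegetative-shock plants stood at 0.785 of control with overlapping libraries (edgeR adjusted p = 0.772). That log2 fold change of -0.35 was -0.14 without vegetative replicate 1 and -0.59 without vegetative replicate 2. The late-shock average of NADH-GOGAT1 ran from -0.78 to -0.53 over the fits that left out 1 library, with 0 of 8 called.

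The balance of the NADH-dependent isoforms within a library does not depend on scaling between libraries. Reads of NADH-GOGAT1 over those of NADH-GOGAT2 were 8.63 and 5.91 in control libraries and 7.88 and 9.87 in vegetative-shock libraries. They were 4.39 and 4.50 in reproductive-shock libraries and 1.88 and 2.65 in double-shock libraries. All 4 late-shock libraries thus lay below the other 4, and double-shock libraries below reproductive-shock libraries. Added together, both genes came to 138 and 115 CPM in control and 82.8 and 110.5 CPM in vegetative-shock libraries. The sums were 71.2 and 82.4 CPM in reproductive-shock and 80.5 and 97.9 CPM in double-shock libraries. Gene lengths were not used, so each sum weighs the genes by their reads and is not a total per transcript.

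Fd-GOGAT, the chloroplast enzyme that takes electrons from ferredoxin, showed no called difference. Its libraries stood at 3302 and 4415 CPM in control, 4979 and 4392 CPM after the early shock, 3493 and 4297 CPM after the late shock and 3890 and 4225 CPM after both. Control libraries differed between themselves by more than any group mean differed from theirs. The farthest was the mean of vegetative-shock plants, 4685 ± 415.5 CPM against 3859 ± 787 CPM (SD, n = 2), at a log2 fold change of 0.28 (95% interval -0.19 to 0.75, edgeR adjusted p = 0.836). Leaving out control replicate 1 gave 0.09, and leaving out control replicate 2 gave 0.51. For reproductive-shock and double-shock plants the intervals against control ran from -0.46 to 0.49 and from -0.40 to 0.55 on the log2 scale.

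**Figure D2:**
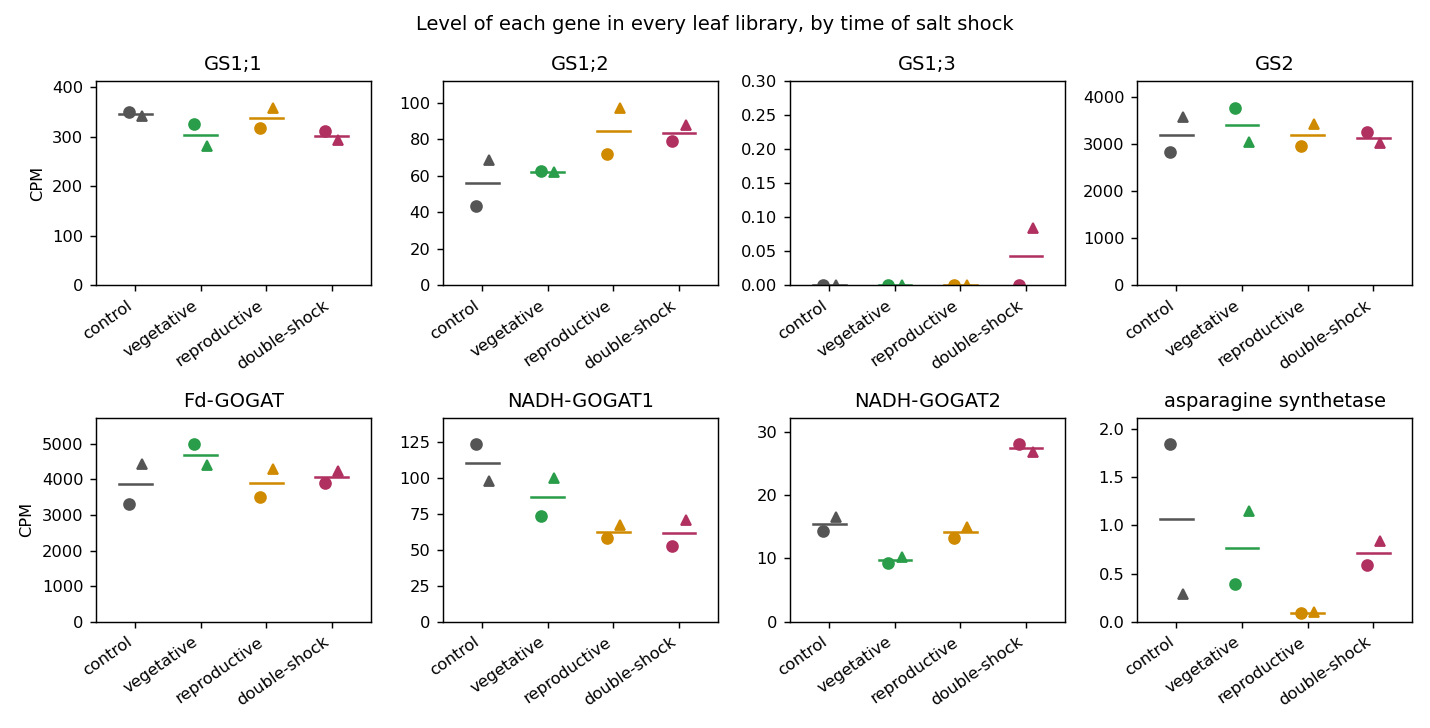
CPM of each of the 8 genes in every library, by group, with circles for replicate 1, triangles for replicate 2 and bars for group means; each panel has its own scale from 0. NADH-GOGAT2 stands apart in double-shock libraries at 26.8 and 28.0 CPM, GS2 and Fd-GOGAT overlap across most groups, and GS1;3 has 1 read in all.

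GS2, the chloroplast glutamine synthetase, varied little over the 8 libraries, with an SD of 0.145 on the log2 scale, and gave no call. Control libraries stood at 2825 and 3564 CPM, vegetative-shock libraries at 3766 and 3043 CPM, reproductive-shock libraries at 2955 and 3425 CPM and double-shock libraries at 3243 and 3019.6 CPM. Every group overlapped with every other. The log2 fold changes against control were 0.09, -0.002 and -0.03 after the early shock, the late shock and both, and their 95% intervals lay within -0.48 and 0.54, with edgeR adjusted p of 0.964, 0.997 and 0.972. GS2 reads made up 0.293% to 0.368% of a library, and 1.17 to 1.44 reads of Fd-GOGAT were counted for each read of GS2.

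Among the cytosolic forms, GS1;1, which in rice leaves serves the export of nitrogen, varied the least of all tested members, from 280.04 to 358 CPM (SD 0.123 on the log2 scale over 8 libraries, against a median of 0.231 over all loci tested). Control libraries stood at 349 and 341 CPM, vegetative-shock libraries at 325 and 280.04 CPM, reproductive-shock libraries at 317 and 358 CPM, and double-shock libraries at 311 and 293 CPM. Vegetative-shock and double-shock libraries lay below both controls, as did those of 17.8% and 21.3% of all loci. The log2 fold changes of GS1;1 were -0.19 and -0.19 and were not called (edgeR adjusted p = 0.816 and 0.642). The first of these was -0.30 without vegetative replicate 1 and -0.09 without vegetative replicate 2.

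GS1;2, the cytosolic form known for ammonium assimilation in rice roots, was higher in all 4 late-shock libraries than in the other 4. It stood at 43.4 and 68.8 CPM in control and 62.4 and 62.3 CPM in vegetative-shock libraries, against 71.9 and 97.4 CPM in reproductive-shock and 79.4 and 87.8 CPM in double-shock libraries. The late-shock average was 0.51 on the log2 scale (SE 0.15, 95% interval 0.16 to 0.86, edgeR adjusted p = 0.218) and was not called, and 3.12% of all loci had all late-shock libraries above the rest. Without the low-count filter edgeR called GS1;2 for the late-shock average (0.51, adjusted p = 0.000686) and for reproductive-shock and double-shock plants against control (0.59 and 0.57, adjusted p = 0.0103 and 0.0164). That unfiltered fit called 1224, 1291 and 1119 loci in these comparisons, against 82, 112 and 30 as reported. DESeq2 gave the late-shock average of GS1;2 an adjusted p of 0.0678. For reproductive-shock and double-shock plants against control it gave adjusted p of 0.179 and 0.295. Control replicate 1 was the lowest library. Without it the late-shock average was 0.36 (edgeR adjusted p = 0.436), and the value for reproductive-shock plants against control was 0.30 instead of 0.59. Without control replicate 2 these values were 0.69 (edgeR adjusted p = 0.0791) and 0.96. Without reproductive replicate 2, the highest library, the value against control was 0.35.

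Reads of GS1;1 over those of GS1;2 in a library were 8.04 and 4.96 in control, 5.21 and 4.49 after the early shock, 4.42 and 3.68 after the late shock and 3.92 and 3.33 after both. Each late-shock library lay below each of the others, by a narrow margin between 4.42 and 4.49. Summed without use of gene lengths, the cytosolic forms came to 392 and 410 CPM in control and 388 and 342 CPM in vegetative-shock libraries. They came to 389 and 456 CPM in reproductive-shock and 390 and 381 CPM in double-shock libraries. As for GS1;1 alone, control libraries lay above vegetative-shock and double-shock libraries and overlapped with reproductive-shock libraries.

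GS1;3, the form known from rice spikelets, was at 0 reads in 7 libraries and had 1 read in double-shock replicate 2. A count of 0 allows up to 3 reads, which is 0.246 to 0.293 CPM in these libraries, for counting error only. It was the only member that did not pass the filter on low counts, and no fold change is given for it.

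The asparagine synthetase locus was near the limit of detection. It had 22 and 3 reads in control, 4 and 14 in vegetative-shock, 1 and 1 in reproductive-shock and 6 and 10 in double-shock libraries. Its pass of the low-count filter rested on the libraries with the most reads, control replicate 1 and vegetative replicate 2. The control reads compared below thus also brought it into the test. Pooled over libraries, reads in control exceeded those in reproductive-shock plants 12.9-fold per read counted, with a 95% exact binomial interval of 3.22 to 113 that covers counting error only. Pooled reads in double-shock plants exceeded those in reproductive-shock plants 8.18-fold (1.92 to 73.3). Neither difference was called (edgeR adjusted p = 0.225 and 0.604), and most control reads came from replicate 1. Without the low-count filter edgeR called asparagine synthetase in reproductive-shock plants against control (log2 fold change -3.40, adjusted p = 0.0066). That unfiltered fit called 1291 loci in this comparison, against 112 as reported. DESeq2 did not call the locus there (adjusted p = 0.295). Nor did edgeR with RLE size factors (adjusted p = 0.227) or on these 2 groups alone (adjusted p = 0.233). The log2 fold change in that comparison was -3.41 as reported, -1.52 without control replicate 1 (edgeR adjusted p = 0.734) and -4.16 without control replicate 2 (edgeR adjusted p = 0.11).

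**Figure D3:**
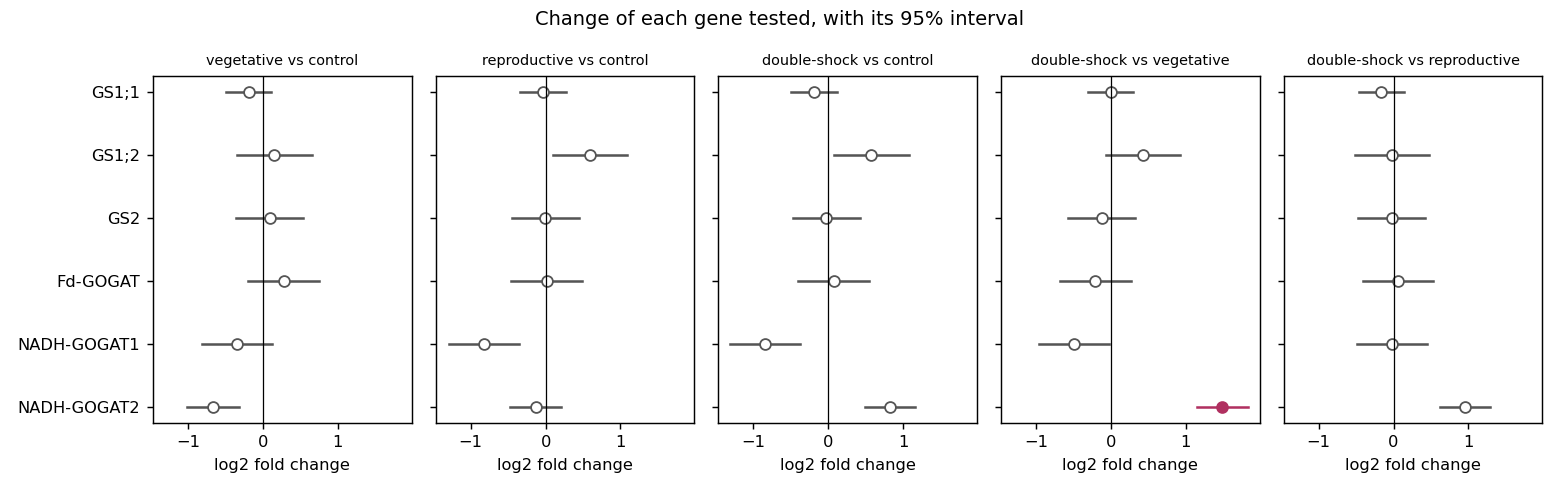
Log2 fold changes (circles) with 95% intervals (lines) of 6 members in 5 comparisons, on 1 shared axis. The filled circle is the call, NADH-GOGAT2 in double-shock against vegetative-shock plants at 1.49; asparagine synthetase and GS1;3 are left out for their few reads.

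The calls of the 7 tested members were set beside the shares of all loci. Those shares were so low against control that 0 of 7 says little about the group. Against control, edgeR called 0 of 7 in vegetative-shock, reproductive-shock and double-shock plants, where 0.0329%, 0.614% and 0.164% of all loci were called. At an unadjusted p below 0.05 there were 1, 3 and 3 members, against 7.70%, 14.2% and 11.2% of all loci. DESeq2 called 0, 1 and 1 members, and 128, 431 and 222 of the 18251 loci. The median log2 fold changes of the members were -0.19, -0.03 and -0.03, and those of all loci were 0.004, -0.003 and 0.007. These comparisons share the control libraries.

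Between double-shock and reproductive-shock plants edgeR called 0 of 7 members and 0% of all loci. Here 2 members had an unadjusted p below 0.05, against 8.05% of loci, and DESeq2 called 1 member and 61 of the 18251 loci. For the early shock averaged over both late treatments edgeR called 0 of 7 members and 0% of loci. Of the members, 0 had an unadjusted p below 0.05, against 5.78% of loci, and DESeq2 called 0 members and 12 loci. At an unadjusted p below 0.05 there were 2 members between double-shock and vegetative-shock plants against 8.66% of loci, 4 for the late-shock average against 12.8%, and 2 for the interaction against 9.71%. Groups did not overlap for 2 members in vegetative-shock plants against control, both lower, where 16.5% of loci were higher and 17.8% lower without overlap. In reproductive-shock plants this held for 3 members and in double-shock plants for 4, where 22.2% and 20.3% of loci were higher and 23.1% and 21.3% lower. Between double-shock and reproductive-shock plants it held for 3 members, against 20.5% of loci higher and 21.1% lower. Between double-shock and vegetative-shock plants it held for 4, against 19.4% higher and 18.9% lower. For the early-shock average, groups of 4 libraries did not overlap for 0 members, against 0.931% of loci higher and 1.33% lower.

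**Figure D4:**
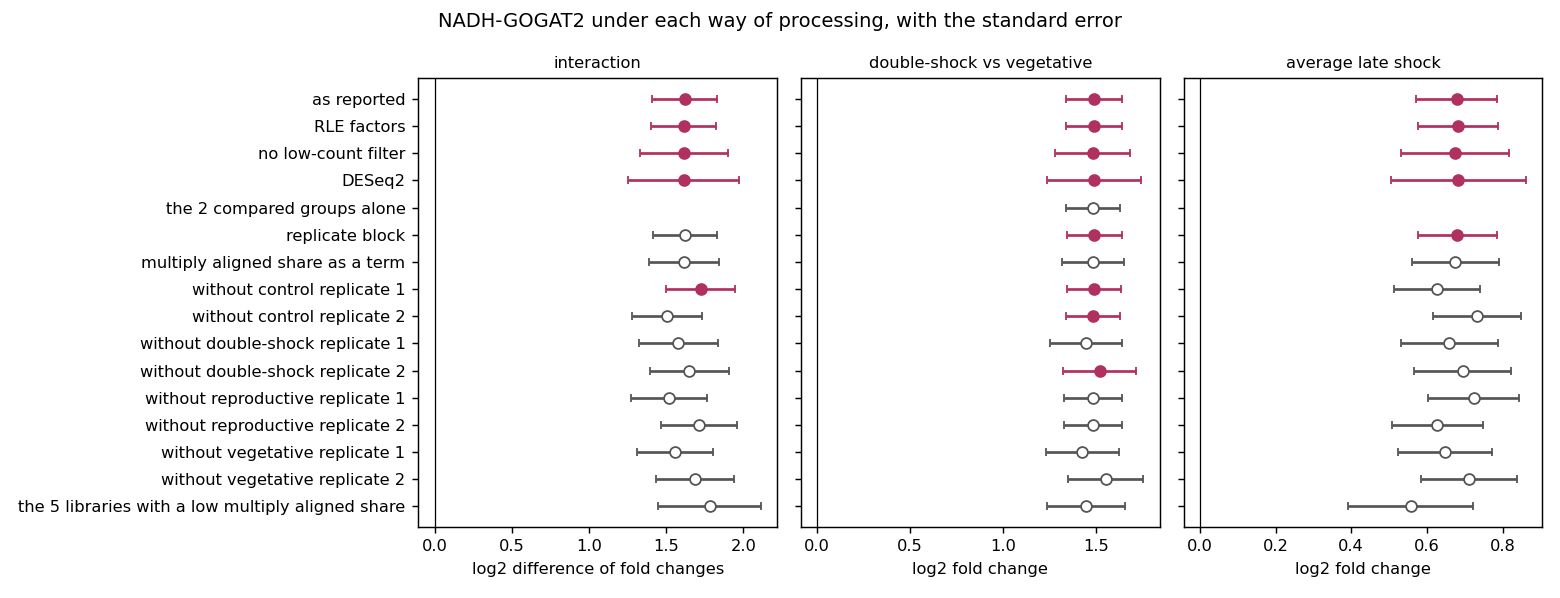
NADH-GOGAT2 in 3 contrasts, the interaction, double-shock against vegetative-shock and the late-shock average, each as its log2 value with 1 SE under the reported fit and each alternative; filled circles are called at an adjusted p below 0.05. The values stay between 1.50 and 1.78, 1.43 and 1.55, and 0.56 and 0.73, while most alternatives that leave out libraries lose the call.

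The patterns over all libraries were compared by the root mean square difference of log2 CPM, each gene centred on its own mean over the 8 libraries. Values were not scaled by spread, so a gene that varies little can lie near others without sharing their pattern. The SD was 0.123 for GS1;1 and 0.145 for GS2, against 0.421 for NADH-GOGAT1. Distances of asparagine synthetase rest on 1 to 22 reads a library. GS2 and Fd-GOGAT were each other's nearest member, at 0.106, and among 18250 other loci GS2 ranked 64 by distance from Fd-GOGAT, and Fd-GOGAT 278 from GS2. The nearest members of GS1;1, GS1;2, NADH-GOGAT1, NADH-GOGAT2 and asparagine synthetase were GS2, Fd-GOGAT, GS1;1, GS1;2 and NADH-GOGAT1, at 0.148, 0.317, 0.394, 0.470 and 0.508, with ranks of 1893, 4019, 5284, 2230 and 501. Among 12422 loci with a mean of at least 5 CPM, LOC_Os04g45490 and LOC_Os01g25990 lay nearest to GS2, at 0.0489 and 0.0511. LOC_Os02g35100 and LOC_Os07g40224 lay nearest to Fd-GOGAT, at 0.0582 and 0.0695.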

How the data were processed

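Raw read counts per locus, 1 table for each leaf library, were deposited by the authors. Libraries were prepared with Illumina's TruSeq RNA V2 kit, per the labels' protocols. The submitters' processing notes name STAR 2.7 and HTSeq 0.11.1, and also FastQC 0.11.7, Trimmomatic and edgeR 3.8, with no settings. Build, annotation and strand setting: not given in the sources used here. Counts of loci that overlap another or have a near-identical copy are therefore uncertain. The 5 HTSeq summary lines (14.97% to 19.2% of reads, multiply aligned reads among them) were left out.

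Groups and replicate numbers come from the sample titles. After filterByExpr, 18251 loci of 8 libraries entered 1 model of 4 group means in edgeR 4.0.16 (R 4.3.3; TMM; 4 residual and 4.77 prior degrees of freedom) with two-sided quasi-likelihood F tests. An SE is the log2 fold change over the root of F, and 95% intervals use the t distribution of the fit. Distances between genes used log2(CPM + 0.5). The procedure was tested on simulated counts. Alternatives changed the size factors (RLE), the low-count filter, the tool (DESeq2 1.42.0) or the groups fitted, added a replicate block or the multiply aligned share, or left out each library, with a lone library assumed to vary like the other groups. A fit on the 5 libraries of low multiply aligned share was added after seeing the data.

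All 8 members were named by rule, with the nearest member of each and the 2 loci nearest to the glutamine synthetase and the glutamate synthase with the most reads. Members, lists and tests were chosen with earlier results of these data known. The reference gene table (assembly ASM3414082v1) paired 0 of the 55986 identifiers, so other nitrogen genes, leaf markers and sequences were not analysed here. Replicate libraries differed by more than sampling noise (chi-square per degree of freedom 12.4 to 14.42).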

Additional observations from a re-analysis of the deposited data

Results flagged for a closer look

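The effect of the late shock on NADH-GOGAT2 differed between plants without and with an early shock, by a test of the difference itself: the interaction was 1.62 on the log2 scale (SE 0.21, edgeR adjusted p = 0.0416). Against control, vegetative-shock plants stood at -0.66 and double-shock plants at 0.83 (log2), neither called (edgeR adjusted p = 0.275 and 0.0861). Double-shock against reproductive-shock plants, at 0.96, was not called either (edgeR adjusted p = 0.227). The late shock went with a log2 fold change of -0.13 in plants without an early shock and of 1.49 in plants with one. The libraries of double-shock plants (28.0 and 26.8 CPM) were the highest of all 8, and those of vegetative-shock plants the lowest. Each of the 8 fits without 1 library kept the direction (1.50 to 1.72), but the NADH-GOGAT2 interaction was called in 1 of them (edgeR adjusted p = 0.0351, without control replicate 1) and not in the other 7 (0.0791 to 0.177). It was also not called with the replicate block (edgeR adjusted p = 0.0503), with the multiply aligned share as a term (0.0656) or in the 5 libraries of low share. The call was kept with RLE factors (edgeR adjusted p = 0.0449), with DESeq2 (adjusted p = 0.00171) and without the low-count filter (edgeR adjusted p = 3.15e-06). DESeq2 and the unfiltered fit called 175 and 646 loci, against 18 as reported.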

How the results depend on the processing

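The counts below follow one order: vegetative-shock, reproductive-shock and double-shock plants against control, double-shock against reproductive-shock plants, double-shock against vegetative-shock plants, late-shock average, early-shock average, interaction. As reported, 6, 112, 30, 0, 13, 82, 0 and 18 loci and 0, 0, 0, 0, 1, 1, 0 and 1 members were called. Without the low-count filter these became 499, 1291, 1119, 501, 706, 1224, 301 and 646 loci and 0, 3, 3, 1, 1, 3, 0 and 1 members. DESeq2 called 128, 431, 222, 61, 102, 312, 12 and 175 loci and 0, 1, 1, 1, 1, 2, 0 and 1 members. With the compared groups alone, 1 locus was called for vegetative-shock and 175 for reproductive-shock plants against control, and 0 loci and 0 members for double-shock against vegetative-shock plants. The replicate block gave 11 and 54 loci for vegetative-shock and double-shock plants against control and 0 members for the interaction, and changed no other call of a member. Replicate numbers were not taken as pairing libraries in the reported fit. Same-numbered libraries deviated together at r = -0.158 to 0.255 across loci, which cannot exclude pairing. The multiply aligned share as a term gave 8 loci for double-shock against vegetative-shock plants, 29 for the interaction, and 0 members for these and the late-shock average. The 5 libraries of low share gave 0 members in the same 3. Leaving out 1 library gave 0 to 52, 1 to 143, 4 to 49, 0 to 17, 0 to 28, 14 to 89, 0 to 0 and 0 to 55 loci. Where a member was called, it gave 0 to 1, 0 to 0 and 0 to 1 members. The causes were not tested.

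Some values that were not called switched sign. Those of asparagine synthetase, on few reads, were -0.46 and -0.59 as reported for vegetative-shock and double-shock plants against control. The log2 fold change of GS2 in reproductive-shock plants against control was 0.0050 with RLE factors and 0.0050 with DESeq2. With the multiply aligned share as a term, that of asparagine synthetase in vegetative-shock plants against control was 0.032 and the interaction of GS1;1 was -0.012. In the 5 libraries of low share NADH-GOGAT1 was at 0.29 in double-shock against reproductive-shock plants and at 0.062 for the early-shock average. Leaving out 1 library changed the sign in 45 of 448 member values, and 0 of these were called. GS1;2 then ranged from -0.14 to 0.53 for vegetative-shock plants against control, -0.080 to 0.25 for the early-shock average, -0.55 to 0.13 for the interaction and -0.23 to 0.22 for double-shock against reproductive-shock plants. GS2 then ranged from -0.068 to 0.27 for vegetative-shock plants against control, -0.048 to 0.12 for the early-shock average, -0.30 to 0.041 for the interaction, -0.16 to 0.18 for reproductive-shock plants against control, -0.19 to 0.15 for double-shock plants against control, -0.14 to 0.026 for the late-shock average, -0.14 to 0.088 for double-shock against reproductive-shock plants and -0.27 to 0.039 for double-shock against vegetative-shock plants. Asparagine synthetase then ranged from -1.46 to 1.42 for vegetative-shock plants against control, -1.34 to 1.30 for double-shock plants against control and -0.67 to 0.87 for double-shock against vegetative-shock plants. Fd-GOGAT then ranged from -0.18 to 0.24 for reproductive-shock plants against control, -0.12 to 0.30 for double-shock plants against control, -0.19 to 0.014 for the late-shock average and -0.089 to 0.22 for double-shock against reproductive-shock plants. NADH-GOGAT1 then ranged from -0.26 to 0.18 for double-shock against reproductive-shock plants. GS1;1 then ranged from -0.076 to 0.14 for the interaction, -0.11 to 0.11 for double-shock against vegetative-shock plants, -0.069 to 0.038 for the late-shock average and -0.13 to 0.060 for reproductive-shock plants against control.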
